A study of Mus musculus with 22 samples.

Results

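The MAP kinase kinases of the mouse are encoded by Map2k1 to Map2k7, and all 7 genes were found by symbol among the 10516 genes of the deposited tables. They were chosen as a gene family, and within the family Map2k5 and Map2k6 are named by the study as targets of DENR, a factor that lets ribosomes start again on a coding sequence (CDS) after they have translated a short upstream open reading frame (uORF). The measurements come from NIH3T3 cells, an immortalized line of mouse embryonic fibroblasts, which carried a lentiviral shRNA and were selected with puromycin. Denr was knocked down in 6 lysates (Denr shRNA1 in 3, Denr shRNA2 in 3), and 5 control lysates carried a scramble shRNA (3) or an shRNA against Gfp (2). Each lysate came from 1 dish of cells treated with cycloheximide, which stalls elongating ribosomes, and gave 1 library of ribosome-protected fragments (RPF-seq) and 1 of total RNA (RNA-seq). The sources do not say that the dishes of an shRNA were transduced separately, so the spread between them may in part be technical.

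MAP kinase kinases are the middle tier of the MAP kinase cascades: a MAP kinase kinase kinase phosphorylates them, and they in turn phosphorylate both a threonine and a tyrosine in the activation loop of a MAP kinase. MEK1 and MEK2 (Map2k1, Map2k2) act on the classical ERK kinases, MEK5 (Map2k5) acts on ERK5, MKK3 and MKK6 (Map2k3, Map2k6) act on the p38 kinases, and MKK4 and MKK7 (Map2k4, Map2k7) act on the JNK kinases, with MKK4 also able to act on p38. In fibroblasts these cascades carry growth factor signals (the classical ERK kinases and ERK5) and stress and cytokine signals (p38 and JNK).

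The annotated 5′ untranslated regions (5′ UTRs) of the family differed widely. In GENCODE vM21 (GRCm38), on the transcript with the longest CDS, the 5′ UTR measured 645 nt in Map2k5, 339 nt in Map2k1, 288 nt in Map2k6, 232 nt in Map2k2, 190 nt in Map2k3, 81 nt in Map2k7 and 53 nt in Map2k4, against a median of 179 nt over 10205 genes. With uORFs taken as AUG reading frames of 9 nt or more that end at a stop codon, Map2k2, Map2k3, Map2k5 and Map2k6 each had 1 uORF and Map2k1, Map2k4 and Map2k7 had none on this transcript, although the transcript Map2k7-206, with a 5′ UTR of 170 nt, has 1 that overlaps the CDS, and 5084 of the 10205 genes (49.8%) had at least 1. All 4 uORFs ended inside the 5′ UTR. Those of the named targets ended farther from the CDS, at 240 nt in Map2k5 (uORF of 60 nt) and 63 nt in Map2k6 (45 nt), than those of Map2k2 (27 nt, uORF of 15 nt) and Map2k3 (26 nt, uORF of 45 nt). Map2k5 and Map2k6 were also the members whose 5′ UTR held a start codon directly followed by a stop codon, a minimal uORF of 6 nt, which lay 16 nt before the CDS in Map2k5 and 240 nt before it in Map2k6. Such a minimal uORF was found in 632 of the 10205 genes (6.19%), and 508 genes (4.98%) had it together with a longer uORF. Start codons other than AUG, and where on a 5′ UTR the footprints lie, were not examined.

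The start codons are shown because they are what a scanning ribosome meets before the CDS. Each line gives 9 bases before the AUG, the AUG, and the bases after it, 5′ to 3′ on the sense strand as DNA from the GENCODE vM21 transcripts. Capitals mark the start codon and, in a minimal uORF and in the whole uORF of Map2k2, also the stop codon. The uORF start codons lie in exon 1 of their transcripts, at chr9:63377555-63377557 (minus strand) for Map2k5, chr11:110399302-110399304 (plus strand) for Map2k6, chr10:81106105-81106107 (plus strand) for Map2k2 and chr11:60932152-60932154 (plus strand) for Map2k3. The minimal uORFs start at chr9:63377277-63377279 in Map2k5 and chr11:110399164-110399166 in Map2k6.
Map2k5 uORF: gactacagaATGcttgtgg
Map2k5 minimal uORF: cgccccaggATGTGAgacc
Map2k5 CDS: taacctgtaATGctgtggc
Map2k6 uORF: tccacttgcATGaagattg
Map2k6 minimal uORF: tggcccatcATGTAGctgc
Map2k6 CDS: aaggggaaaATGtctcagt
Map2k2 uORF: ccgccccctATGggccccg
Map2k2 whole uORF: ATGggccccggcTGA
Map2k3 uORF: ccagcagccATGagcgcgc
On the scheme by which the study weights the bases around a start codon (the Kozak context, at most 13), the uORF start codons scored 4 in Map2k5, 2 in Map2k6, 6 in Map2k2 and 9 in Map2k3, and the minimal uORFs scored 5 in Map2k5 and 6 in Map2k6. In a minimal uORF the base after the start codon is the T of the stop codon, which cannot score. The scores of minimal uORFs therefore cannot reach 13 and do not compare with the others. The study left out uORFs of this length, in part for this reason. The start codon of the CDS scored 4 in Map2k5 and 6 in Map2k6. In the other members it scored 4 in Map2k1, 6 in Map2k2, 8 in Map2k3 and Map2k4, and 9 in Map2k7. The map of the 5′ UTRs shows where these reading frames lie.

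**Figure D1:**
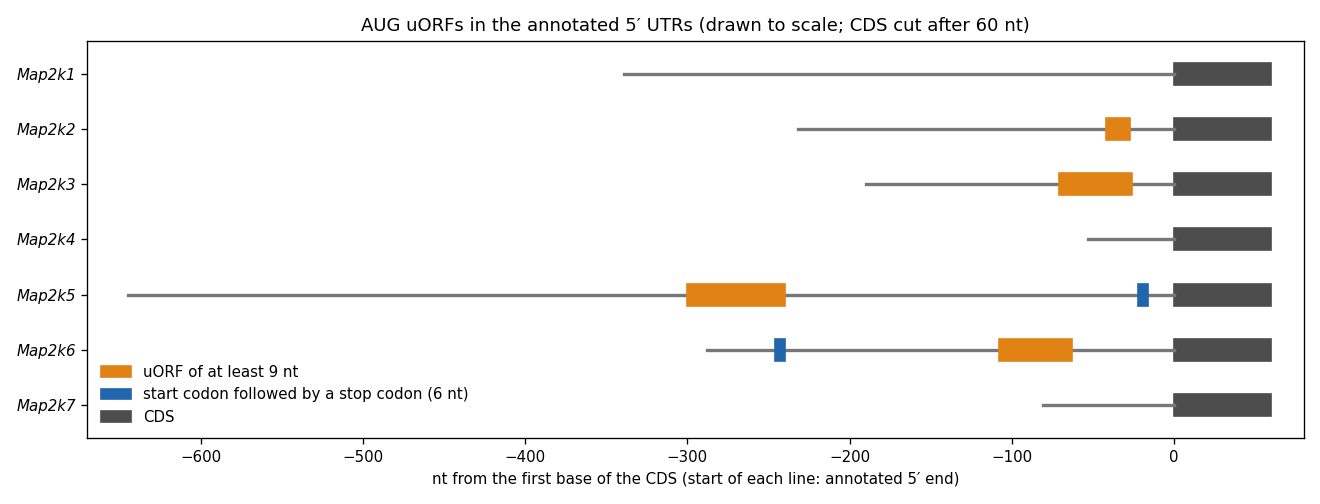
AUG uORFs in the annotated 5′ UTRs of the 7 genes, with the distance from the first base of the CDS in nt on the horizontal axis. Orange boxes are uORFs of at least 9 nt, blue boxes are minimal uORFs of 6 nt and dark boxes are the start of the CDS. The uORF of Map2k5 ends 240 nt before the CDS and those of Map2k2 and Map2k3 end 27 and 26 nt before it.

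Summed over both regions, depth was 10927303 to 21649878 reads per library in RPF-seq and 8514080 to 20109700 in RNA-seq, as recovered from the deposited RPKM values (reads scaled to region length and library size, upper-quartile normalized). Over the 11 lysates the CDS of Map2k6 held 140 to 351 footprints and 86 to 603 RNA-seq reads, with the 86 reads in scramble shRNA replicate 3, and that of Map2k5 held 159 to 367 and 206 to 699. Denr itself, the targeted gene, stood at 15.5 to 44.0 RPKM in RNA-seq of the 6 knockdown lysates and at 165 to 190 RPKM in the 5 controls (log2 change -2.75, SE 0.25, limma adjusted p = 0.00035). Of 11 fibroblast markers 10 were in the table, Lum being the exception, and their summed level was 7707 to 9610 RPKM in knockdown and 7383 to 8972 RPKM in control lysates. Of epithelial, macrophage, endothelial and skeletal muscle markers, 2 of 6, 1 of 5, 1 of 4 and 1 of 4 were in the table, and defining genes such as Epcam, Ptprc, Pecam1 and Myod1 were not.

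In control lysates the named targets were the least abundant members. Per length, RNA abundance fell in the order Map2k2 (183 RPKM ± 13.2, SD, n = 5), Map2k3 (122 ± 7.96), Map2k4 (82.4 ± 3.09), Map2k1 (53.6 ± 2.66), Map2k7 (42.1 ± 3.87), Map2k5 (21.7 ± 1.83) and Map2k6 (15.1 ± 3.04), and the control lysates of no 2 neighbours in this order overlapped. Map2k5 and Map2k6 also carried the fewest CDS footprints, 13.7 RPKM ± 0.976 and 14.7 ± 2.43, and overlapped with each other. Translation efficiency (TE, the log2 ratio of CDS RPKM in RPF-seq to that in RNA-seq of the same lysate) was highest for Map2k1 (0.45 ± 0.11) and lowest for Map2k4 (-0.78 ± 0.11), Map2k5 (-0.66 ± 0.05) and Map2k2 (-0.58 ± 0.08), among which neighbours overlapped. Map2k6 had a mean log2 TE of -0.03 ± 0.12 in controls, at percentile 52.2 of the 10516 genes, and Map2k5 lay at percentile 27.7. The scale of TE is relative, since each assay was normalized on its own, and in these bulk lysates less RNA per cell and fewer cells with the RNA cannot be told apart.

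**Figure D2:**
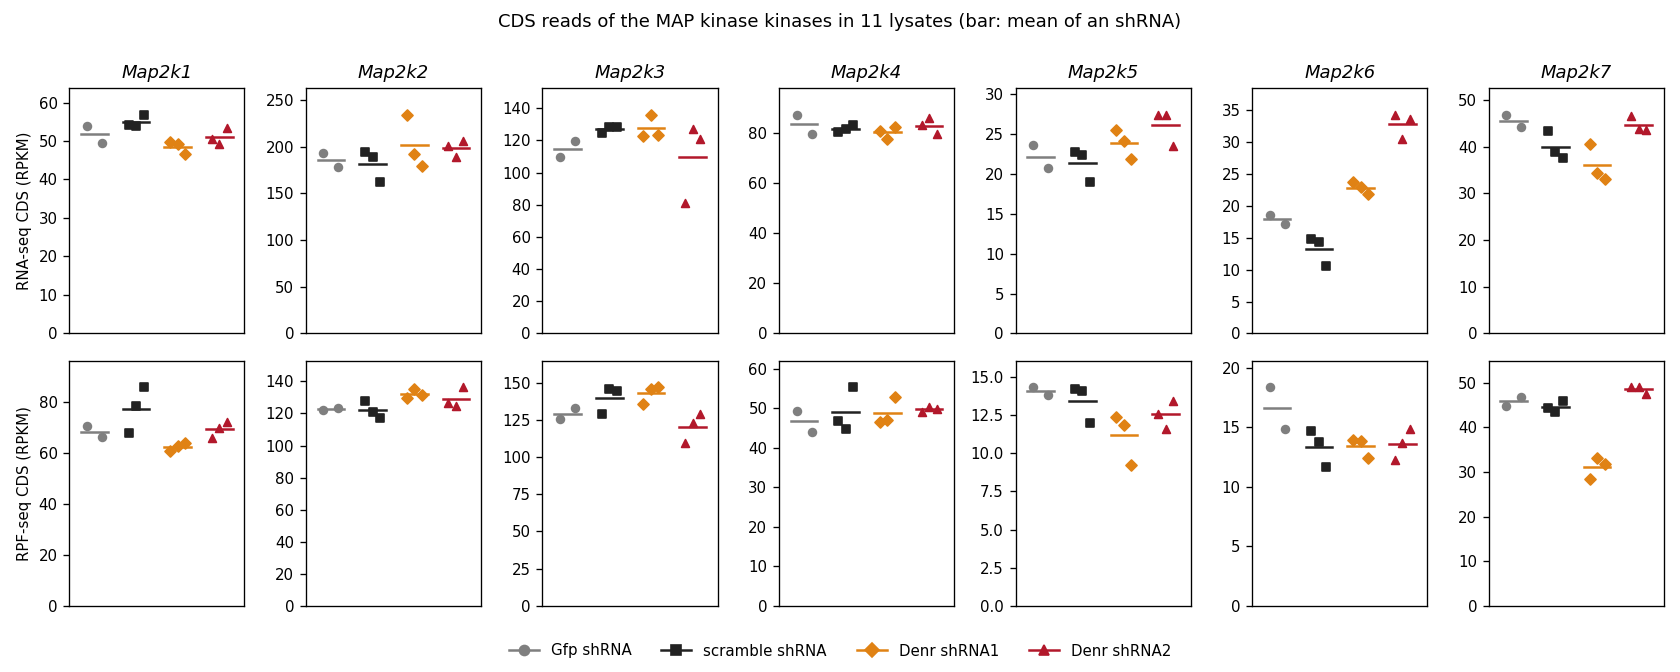
CDS RPKM of each member in RNA-seq (upper row) and RPF-seq (lower row), 1 point per lysate, with a bar at the mean of each shRNA and axes that start at 0. In RNA-seq the 6 knockdown lysates of Map2k6 lie at 21.9 to 34.3 RPKM, above the controls at 10.6 to 18.5, while its footprints overlap at 12.3 to 14.9 and 11.7 to 18.4.

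On Denr knockdown, TE fell in Map2k5 and Map2k6 and passed the test in no other member. Of all 10516 genes, 50 (0.475%) were called lower and 0 (0.0%) higher at a false discovery rate (FDR) of 0.1 with limma, where 545 genes were lower and 155 higher at an unadjusted p under 0.05. The 2 genes called are the ones the study had picked from TE in these same libraries, so their being called is not independent evidence of a decrease. For Map2k5 the study also gives a luciferase assay with its 5′ UTR. There the reporter lost more signal on Denr knockdown than control reporters did. Mutating the start codon of the longer uORF shown above removed most of this dependence, according to the study. Map2k6 was not among these reporters, but the study lists it with genes whose regulatory uORFs earlier work had described. The 5 others had log2 TE changes between -0.14 (Map2k7) and 0.05 (Map2k4), with adjusted p of 0.973 or above by limma. RNA and footprints entered the TE of the 2 targets in different proportions, and the members are described by branch.

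In the classical ERK branch neither member passed for RNA, CDS footprints or TE in the fit of all lysates without replicate number. Map2k1 had 46.6, 49.5 and 53.4 RPKM in RNA-seq (lowest, median and highest of 6 knockdown lysates) against 49.5, 54.0, 54.1, 53.8 and 56.9 RPKM in controls (log2 change -0.11, SE 0.06, adjusted p = 0.413 by limma), and 3 knockdown lysates lay below all controls. Its CDS footprints changed by -0.16 (SE 0.07, adjusted p = 0.209) and its TE by -0.05 (95% interval -0.20 to 0.10). The footprints passed with replicate number in the fit (-0.18, limma adjusted p = 0.0992) and with scramble shRNA alone as control (-0.23, limma adjusted p = 0.0761). Those fits called 1940 and 2651 of all 10516 genes, against 1053 in the fit of all lysates without replicate number. Map2k2 leaned the other way in RNA (log2 change 0.12, SE 0.08, adjusted p = 0.473) and in CDS footprints (0.09, SE 0.05, adjusted p = 0.237), with a TE change of -0.03 (95% interval -0.21 to 0.15). The coding sequences of this pair are 79.1% identical over 1172 aligned bases and share 49 words of 26 nt, so some short footprints could have been assigned to either gene. Among the other combinations of members, Map2k2 and Map2k5 share 1 such word and the rest share 0.

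In the ERK5 branch, Map2k5 lost TE through small opposite shifts of RNA and footprints, neither of which passed alone in the fit without replicate number. Its log2 TE was -1.04, -1.02 and -1.23 with Denr shRNA1 and -1.11, -1.24 and -0.80 with Denr shRNA2, against -0.71 and -0.59 with Gfp shRNA and -0.67, -0.67 and -0.66 with scramble shRNA. All 6 knockdown lysates were thus below all 5 controls, as in 1.32% of all genes. The decrease was 0.41 on the log2 scale (SE 0.09), or 0.752-fold (95% interval 0.659 to 0.857), with an adjusted p of 0.0944 by limma that lay close to the FDR of 0.1 and exceeded it without any of 9 of the 11 lysates, up to 0.265. RNA stood at 21.8 to 27.4 RPKM in knockdown and 19.0 to 23.6 in control lysates (log2 change 0.20, SE 0.08, adjusted p = 0.241), and CDS footprints at 9.25 to 13.4 and 12.0 to 14.3 RPKM (-0.21, SE 0.09, adjusted p = 0.183). With replicate number added to the fit, RNA passed (0.23, limma adjusted p = 0.0673) and TE did not (-0.42, limma adjusted p = 0.115). Against all controls the TE change was -0.43 (SE 0.09) for Denr shRNA1 and -0.39 (SE 0.11) for Denr shRNA2, each short of the threshold with 3 lysates (limma adjusted p of 0.432 and 0.266). These fits called 1 (Denr shRNA1) and 43 (Denr shRNA2) of all 10516 genes.

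In the p38 branch, the RNA of Map2k6 rose, its TE fell, and its CDS footprints did not pass the test. RNA-seq gave 23.8, 22.9 and 21.9 RPKM with Denr shRNA1, 34.3, 30.5 and 33.6 with Denr shRNA2, 18.5 and 17.2 with Gfp shRNA, and 14.8, 14.3 and 10.6 with scramble shRNA. Every knockdown lysate was above every control, as in 2.63% of all genes, and the 4 shRNAs did not overlap with each other. The RNA was 1.84-fold higher (95% interval 1.46 to 2.32, log2 change 0.88, SE 0.16, limma adjusted p = 0.0132), and Map2k6 was the 1 member called for RNA, where 2.68% of all genes were called higher and 0.865% lower. RNA enters the TE on which the study picked Map2k6, so this call is not independent of that choice either.

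CDS footprints of Map2k6 were 12.3, 13.8 and 14.9 RPKM (lowest, median and highest of 6) in knockdown and 18.4, 14.9, 14.7, 13.7 and 11.7 RPKM in control lysates, which overlap throughout. The log2 change of -0.11 (SE 0.10, 95% interval -0.32 to 0.10, adjusted p = 0.531 by limma) leaves the TE change of -0.99 (SE 0.13, 0.505-fold, 95% interval 0.412 to 0.617, adjusted p = 0.0118) with a part of 0.88 from RNA and 0.11 from footprints. Log2 TE was -0.76, -0.73 and -0.81 with Denr shRNA1, -1.48, -1.15 and -1.17 with Denr shRNA2, and -0.21 to 0.14 in controls, and no 2 of these ranges overlapped. No member was called for CDS footprints, where 4.55% of all genes were called lower and 5.47% higher.

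Map2k3, which encodes the closest relative of MKK6, kept neither pattern. Its RNA lay at 81.3 to 136 RPKM in knockdown and 109 to 129 in control lysates (log2 change -0.06, SE 0.11), the lowest value being Denr shRNA2 replicate 1, and its TE changed by 0.01 (95% interval -0.17 to 0.19). The coding sequences of Map2k3 and Map2k6 are 73.7% identical and share no word of 26 nt.

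In the JNK branch, Map2k4 stayed within a narrow range and Map2k7 differed between the Denr shRNAs. Map2k4 had 77.5 to 85.8 RPKM in RNA-seq of knockdown and 79.7 to 87.4 of control lysates (log2 change -0.02, SE 0.06), and its TE changed by 0.05 (95% interval -0.11 to 0.21). CDS footprints of Map2k7 were 28.4, 33.1 and 31.9 RPKM with Denr shRNA1 and 49.0, 49.0 and 47.4 with Denr shRNA2, against 43.4 to 46.9 in controls. The first group lay below and the second above every control, so that the joint change of -0.21 (SE 0.14, adjusted p = 0.357 by limma) averages values from both sides of the controls. Map2k7 values carry a limit of annotation: the gene shares 1349 exonic bases on the same strand with the gene model Gm49320, so reads could have been split between them, and the region lengths behind its RPKM (CDS 1445 nt, 5′ UTR 355 nt) join several isoforms.

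**Figure D3:**
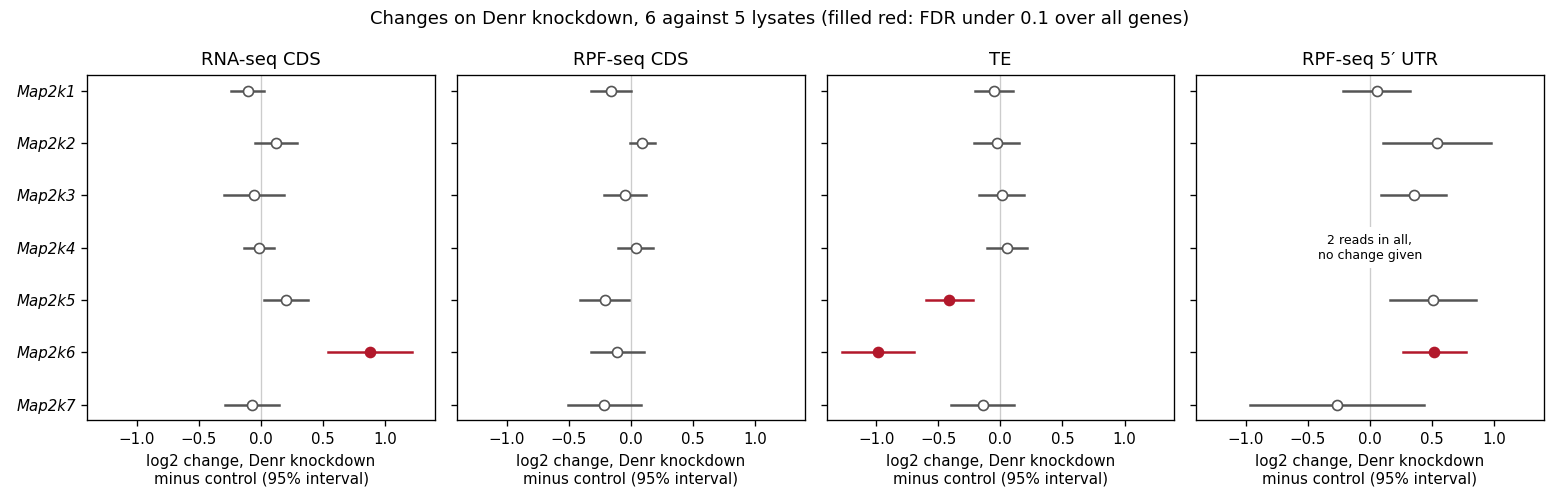
Log2 change on Denr knockdown with its 95% interval for RNA, CDS footprints, TE and 5′ UTR footprints of the 7 members (6 against 5 lysates, limma). Filled red points passed the FDR of 0.1 over all genes: Map2k5 in TE (-0.41), and Map2k6 in RNA (0.88), TE (-0.99) and 5′ UTR footprints (0.52).

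Footprints on the 5′ UTR, which reflect ribosomes upstream of the CDS, were then compared. Map2k1, Map2k2, Map2k3, Map2k5 and Map2k6 are among the 5175 genes with 5′ UTR coverage (at least 20 reads in at least 9 of 11 RPF-seq libraries). Map2k7 held 13 to 48 5′ UTR reads a library. Map2k4, with its 5′ UTR of 53 nt, held 1 read in each of 2 libraries and 0 in the 9 others, where a count of 0 allows up to 3 reads (counting error only), so no change is given for it. The same 5′ UTR held 19 to 34 reads in each RNA-seq library.

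Map2k6 was the 1 member called for 5′ UTR footprints, where 6.73% of 10400 genes were called higher and 0.0577% lower. Its 5′ UTR held 16.2, 20.0 and 21.1 RPKM with Denr shRNA1 and 18.6, 17.0 and 19.6 with Denr shRNA2, against 10.8, 14.4, 11.4, 16.0 and 13.2 in controls, without overlap, which held for 3.83% of all genes in this direction. The increase was 1.43-fold (95% interval 1.20 to 1.71, log2 change 0.52, SE 0.11, limma adjusted p = 0.0527), a call lost without any of 5 of the 11 lysates (up to 0.119), with either Denr shRNA alone and when Gfp shRNA was dropped from the controls. Over all 10400 genes, Denr shRNA1 alone gave 32 calls and Denr shRNA2 alone 8, against 706 with all lysates. Divided by the RNA-seq reads of the same 5′ UTR, the change turned to -0.14 (limma adjusted p = 0.797), so an increase beyond that of the RNA was not detected.

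Changes of similar size that did not pass were seen in Map2k2 (0.54, SE 0.19, adjusted p = 0.145 by limma), Map2k5 (0.51, SE 0.15, adjusted p = 0.107) and Map2k3 (0.35, SE 0.12, adjusted p = 0.128). The 5′ UTR of Map2k5 held 20.9 to 29.3 RPKM in knockdown and 13.6 to 22.6 in control lysates, and 5 of the 6 knockdown lysates lay above all controls. That of Map2k3 held 169 to 213 and 107 to 172 RPKM, again with 5 of 6 above all controls. Map2k1, which has the second longest 5′ UTR and no AUG uORF, changed by 0.05 (95% interval -0.22 to 0.33). These values stand beside a median of 0.32 over all 10400 genes. When the test was restricted to the genes with coverage, 23.0% were called higher, and Map2k2, Map2k5 and Map2k6 were called.

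Relative 5′ UTR translation, the log2 ratio of 5′ UTR to CDS RPKM in RPF-seq, was above 0 in the controls of Map2k5 (0.39 ± 0.43, SD, n = 5) and Map2k3 (0.11 ± 0.22), at percentiles 80.3 and 74.6 of the genes with coverage. On Denr knockdown it changed by 0.72 in Map2k5 (SE 0.21, adjusted p = 0.135 by limma), 0.63 in Map2k6 (SE 0.19, adjusted p = 0.137), 0.44 in Map2k2 (SE 0.19, adjusted p = 0.221), 0.40 in Map2k3 (SE 0.11, adjusted p = 0.129) and 0.21 in Map2k1 (SE 0.13, adjusted p = 0.327), beside a median of 0.33 over all genes. No member was called where 1.08% of 10400 genes were called higher and 0.0% lower. Among the genes with coverage, of which 18.1% were called higher, Map2k3, Map2k5 and Map2k6 were called. CDS footprints are the denominator of this ratio and also enter the TE on which the study picked Map2k5 and Map2k6. They changed by -0.21 in Map2k5 and -0.11 in Map2k6, and a lower CDS value by itself raises the ratio. The calls of Map2k5 and Map2k6 are therefore not independent of that choice.

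Map2k3, whose uORF ends near the CDS, was the member without overlap between the groups in this measure, with 0.41 to 0.63 in knockdown and -0.23 to 0.31 in control lysates (3.26% of all genes lay apart in this direction) beside its TE change of 0.01. In Map2k5 the values were 0.75, 1.07 and 1.65 with Denr shRNA1 and 1.02, 1.13 and 1.00 with Denr shRNA2, against -0.04 and 0.46 with Gfp shRNA and -0.06, 0.66 and 0.91 with scramble shRNA. In Map2k6 they were 0.21 to 0.76 in knockdown and -0.77 to 0.22 in control lysates, the groups overlapping by 1 lysate. In RNA-seq the ratio of 5′ UTR to CDS was called in no member and in 0 (0.0%) of 10400 genes, with 227 lower and 270 higher at an unadjusted p under 0.05, and the largest change among the members was that of Map2k3 (-0.33, SE 0.15, adjusted p = 0.948 by limma).

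**Figure D4:**
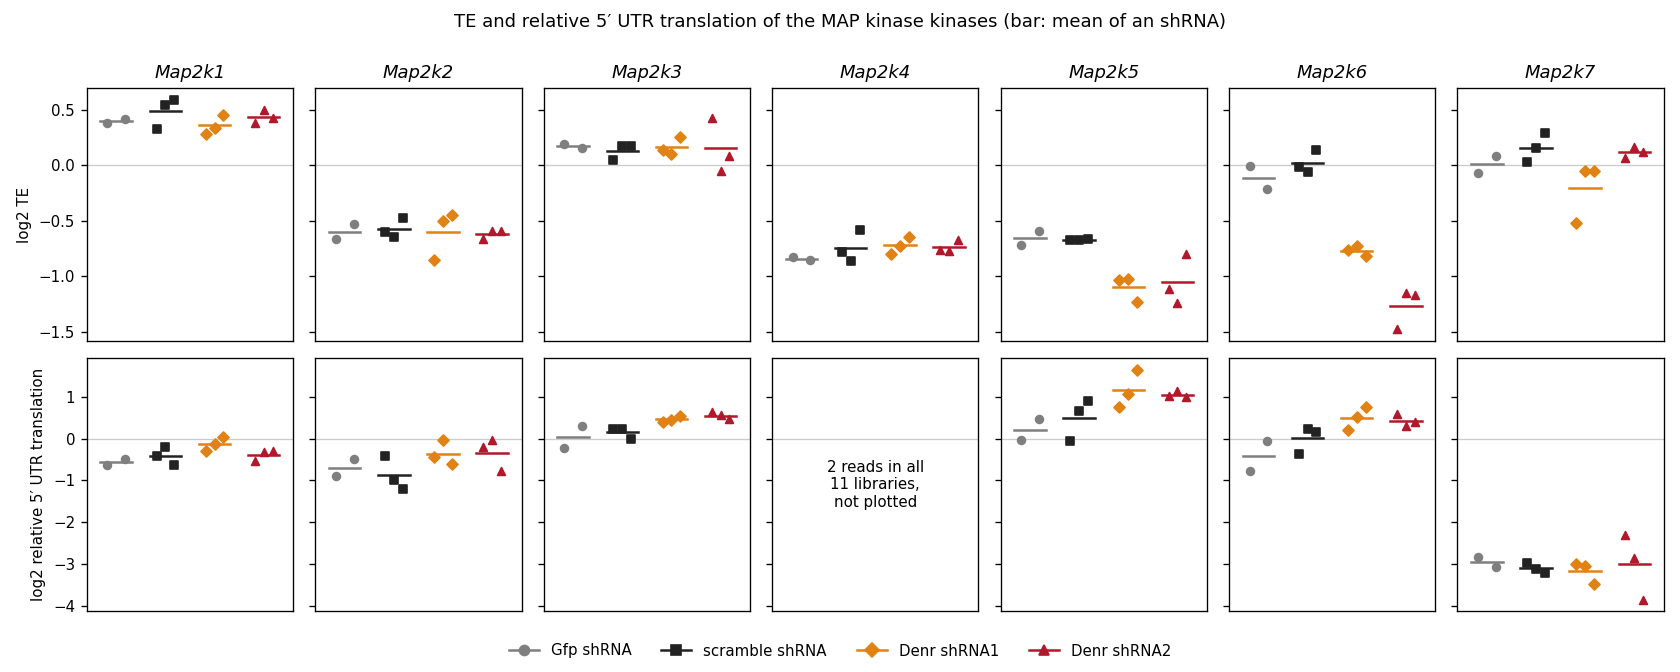
Log2 TE (upper row) and log2 relative 5′ UTR translation (lower row) of each member, 1 point per lysate, with a bar at the mean of each shRNA. The knockdown lysates of Map2k5 (-1.24 to -0.80) and Map2k6 (-1.48 to -0.73) lie below their controls in TE, and those of Map2k3 (0.41 to 0.63) lie above theirs in relative 5′ UTR translation. Map2k4 had 2 5′ UTR footprints in all libraries together and is not plotted in the lower row.

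Paralogues were compared within each lysate, which cancels what both genes share. The RNA of Map2k3 exceeded that of Map2k6 by 3.03 ± 0.39 on the log2 scale in controls (SD, n = 5) and by 2.09 ± 0.50 in knockdown lysates (n = 6), a difference of -0.94. This difference was among the 6 paralogue tests, but its p is not used as evidence, since RNA is part of the TE on which Map2k6 was picked. Map2k1 relative to Map2k2 went from -1.77 ± 0.14 to -2.00 ± 0.12, a difference of -0.23 with the smallest p that the splits of 11 lysates allow (exact two-sided permutation p = 0.00216, adjusted p = 0.0130 over 6 tests). Without single lysates the difference of Map2k1 and Map2k2 was -0.25 to -0.17, with an adjusted exact permutation p of up to 0.0476, close to the threshold of 0.05. Map2k4 relative to Map2k7 went from 0.97 ± 0.13 to 1.02 ± 0.19 (exact permutation p = 0.587). For 5′ UTR footprints neither pair with coverage in both genes passed the test, with -0.48 for Map2k1 and Map2k2 (exact permutation p = 0.117, adjusted p = 0.175) and -0.17 for Map2k3 and Map2k6 (p = 0.0671, adjusted p = 0.134). Described without a test, the TE of Map2k3 over Map2k6 went from 0.18 ± 0.13 to 1.18 ± 0.39, while the CDS footprints of the pair stayed at 3.21 ± 0.32 and 3.27 ± 0.17.

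The Denr shRNAs were then set against each other. Denr itself was lower with Denr shRNA2 (17.9 RPKM ± 2.70 in RNA-seq, n = 3) than with Denr shRNA1 (40.5 ± 5.32). For TE no member and 0 (0.0%) of the 10516 genes were called by limma, with 180 lower and 212 higher at an unadjusted p under 0.05. Map2k6 differed by -0.50 (SE 0.12, adjusted p = 0.972) and Map2k7 by 0.33 (SE 0.13, adjusted p = 0.972), and Map2k5 by 0.04 (95% interval -0.24 to 0.33). The RNA of Map2k6 was called higher with Denr shRNA2 (log2 difference 0.52, SE 0.12, adjusted p = 0.0787 by limma; 1.13% of genes called higher), a call lost without any of 8 of the 11 lysates (up to 0.287).

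CDS footprints of Map2k7 were 1.56-fold higher with Denr shRNA2 (95% interval 1.41 to 1.73, log2 difference 0.64, SE 0.07, limma adjusted p = 0.000202), where 5.68% of genes were called higher. Those of Map2k3 were lower (-0.25, SE 0.08, limma adjusted p = 0.0785), where 4.01% were, a call lost without any of 5 of the 11 lysates (up to 0.256) and in limma without the trend (adjusted p = 0.117). The RNA of Map2k7 differed in the same direction by 0.31 (SE 0.10, adjusted p = 0.189). Within the controls, Gfp against scramble shRNA gave no call for TE among the members or all genes (0.0%, with 88 lower and 145 higher at an unadjusted p under 0.05). Map2k6 RNA differed by 0.44 between them (SE 0.14, adjusted p = 0.278 by limma) where 0.704% of genes were called, and Map2k6 TE by -0.13 (SE 0.13). The RNA of Map2k5 differed by 0.06 between these controls (SE 0.12).

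Around the family, 6 lists of pathway genes were examined (MAP kinases, MAP kinase kinase kinases, scaffolds and adaptors, phosphatases, MAP kinase-activated kinases and transcription factors that MAP kinases phosphorylate). Of their 101 genes 82 were in the table, and none of them was called for TE, where 0.475% of all genes were called lower, so that a count of 0 among 82 genes is near the background. Past Map2k5 in size, and named after their values were seen, were Rps6ka4 (MSK2, a kinase activated by ERK and p38; log2 TE change -0.49, SE 0.11, limma adjusted p = 0.125) and Map3k3 (MEKK3, a kinase that acts on MEK5; -0.45, SE 0.12, limma adjusted p = 0.231). Over the 82 genes 58 had a TE change below 0 and 24 above, with a median of -0.06 against -0.01 over all genes. As the latter is below 0, more of all genes fell than rose too, and their share was not counted. For RNA 2 were called lower and 3 higher (0.865% and 2.68% of all genes), for CDS footprints 12 lower and 4 higher (4.55% and 5.47%), and for 5′ UTR footprints 2 higher (6.73%). By list, calls for RNA were 1 of 9 MAP kinases, 0 of 18 MAP kinase kinase kinases, 1 of 16 scaffolds and adaptors, 1 of 16 phosphatases, 0 of 8 activated kinases and 2 of 15 transcription factors.

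Of the MAP kinases on which the family acts, Mapk3 (ERK1) rose in RNA, from 36.9 RPKM ± 8.66 in controls to 51.1 ± 4.96 in knockdown lysates (log2 change 0.49, SE 0.13, adjusted p = 0.0758 by limma), and in CDS footprints (0.32, SE 0.08, adjusted p = 0.0409). Mapk7 (ERK5), the substrate of MEK5, had an RNA change of 0.23 (SE 0.11, adjusted p = 0.316 by limma) and a TE change of 0.02 (SE 0.09). For p38, Mapk14 (p38 alpha) changed by -0.02 in RNA (SE 0.10) and Mapk11 (p38 beta) by 0.15 (SE 0.11), and for JNK, Mapk8 (JNK1) by -0.19 (SE 0.11) and Mapk9 (JNK2) by -0.15 (SE 0.07), none of them called. Mapk12 and Mapk13 were not among the genes of the table.

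The other pathway genes called for RNA were Gadd45a, Ddit3, Dusp10 and Fosl1. Gadd45a, a stress-induced activator of the JNK and p38 kinase kinase kinase MEKK4, rose from 31.5 RPKM ± 7.54 to 56.6 ± 7.78 (log2 change 0.86, SE 0.14, adjusted p = 0.00791 by limma), and its 5′ UTR footprints rose too (1.45, SE 0.36, adjusted p = 0.0720). Ddit3 (CHOP), a stress-induced factor that p38 phosphorylates, rose by 0.52 (SE 0.14, adjusted p = 0.0854). Dusp10, a phosphatase of p38 and JNK, fell by 0.27 (SE 0.06, adjusted p = 0.0406) and Fosl1 (FRA-1), an ERK target, fell by 0.35 (SE 0.10, adjusted p = 0.0975).

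**Figure D5:**
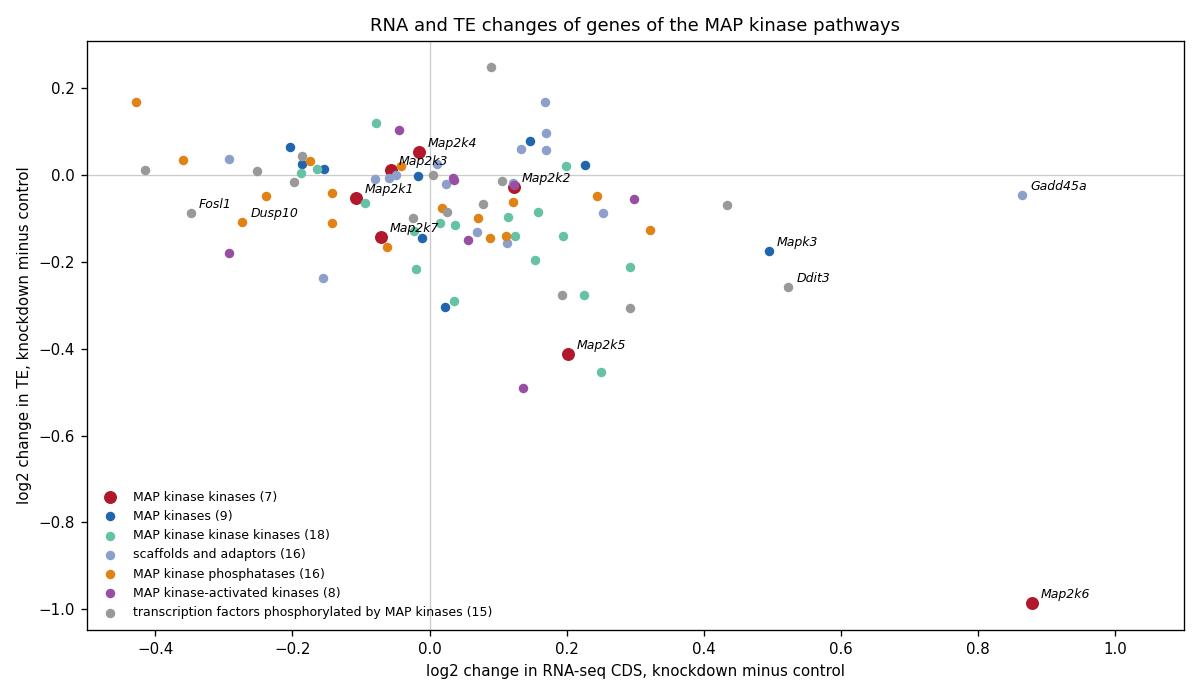
Log2 change in RNA (horizontal) and in TE (vertical) on Denr knockdown for the 7 members and 82 other genes of the MAP kinase pathways, coloured by list with the number of genes in brackets. Map2k6 (0.88, -0.99) lies apart at the lower right, and Gadd45a shares its RNA change (0.86) without its TE change (-0.05).

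Across the 11 lysates, the genes whose log2 TE ran most alike to that of Map2k6 were Drosha (Pearson r 0.983), Fyn (0.975) and Rmnd1 (0.969), of 10147 genes with a mean CDS RPKM of at least 1 in both assays. For Map2k5 they were Cdc42ep3 (0.934), Eef1g (0.925) and Smcr8 (0.924), and Map2k5 and Map2k6 had an r of 0.787 with each other. These are descriptions over lysates that share the knockdown and the normalization of a library.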

How the data were processed

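RPF-seq and RNA-seq libraries of 11 lysates (22 in all) were used. The authors aligned trimmed, size-selected reads step by step to ribosomal, transfer and coding transcripts and then the genome (GRCm38; the submitters' processing notes name Bowtie2 2.2.1, TopHat2 2.0.11 and Cufflinks 2.2.1), counted them on the CDS and 5′ UTR, normalized each assay by the upper quartile in edgeR, removed low and mitochondrial genes, and deposited RPKM values per library. Whole reads were recovered from the steps between values (231352 CDS and 228800 5′ UTR values, all whole within 0.01 reads).

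Values of log2(RPKM + 0.1) were fitted over the whole table for knockdown against control with limma 3.58.1 (eBayes with trend, Benjamini-Hochberg FDR 0.1), so changes of low values are understated. Paralogue differences were compared by exact two-sided permutation (Benjamini-Hochberg over 6 tests, threshold 0.05). The 6 tests include the RNA of Map2k3 and Map2k6 and the 5′ UTR footprints of Map2k4 and Map2k7, whose p-values are not used as evidence. 5′ UTR tests used the 10400 genes with a finite 5′ UTR value. The TE fit was tried on simulated data with 200 changed genes, and the other fits were not. The simulated libraries were drawn independently, without the correlation seen between same-numbered lysates.

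The members and gene lists were chosen with earlier results of these data known. Named were all 7 members, Denr, pathway genes called for TE, the 3 largest increases and decreases in RNA among called pathway genes, the MAP kinases the members act on (1 of them is not reported here), and the 3 genes most like Map2k5 and Map2k6 in TE. Contrasts between shRNAs other than for TE were added after seeing the data. Alternatives were the pseudocount, an expression filter, median centring, no trend, each Denr shRNA alone, scramble alone, an interaction over 22 libraries, 5′ UTR coverage, a replicate block and leaving out each lysate.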

Additional observations from a re-analysis of the deposited data

Results flagged for a closer look

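Of 66 groups of values examined, 4 held a lysate far from the others of its group, where about 1 in 20 is flagged by chance. In RNA-seq, Map2k3 stood at 81.3 RPKM in Denr shRNA2 replicate 1, with the 5 other knockdown lysates at 121 to 136. The log2 TE of Map2k3 was 0.047 in scramble shRNA replicate 1, against 0.15 to 0.20 in the other controls. CDS footprints of Map2k5 were 12.0 RPKM in scramble shRNA replicate 3, against 13.8 to 14.3. The log2 TE of Map2k7 was -0.51 in Denr shRNA1 replicate 1, against -0.05 to 0.16 in the other knockdown lysates.

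The Denr shRNAs differed from each other, by limma over all genes, in the RNA of Map2k6 (log2 difference 0.52 higher with Denr shRNA2), in the CDS footprints of Map2k7 (0.64 higher) and in those of Map2k3 (-0.25). The first and the last lost their call without single lysates, up to adjusted p of 0.287 and 0.256, and the second kept it without each of the 11 lysates (adjusted p at most 0.00187). Denr RNA moved with the shRNA as well, and its part in these differences was not tested.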

How the results depend on the processing

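TE was called in 2 members, and in 0 with Denr shRNA1 alone and 1 with Denr shRNA2 alone, with an interaction over 22 libraries, with libraries centred on their median and with scramble shRNA alone as control. In this order these fits called 1, 43, 39, 37 and 10 of all 10516 genes, against 50 in the fit used above. Without single lysates the count of members was 1 to 2, Map2k5 being lost without 9 of 11, and 14 to 72 of all genes were called. For RNA the count of 1 became 0 with Denr shRNA1 alone and was 1 without each lysate. Denr shRNA1 alone gave 159 calls over all 10516 genes, against 373 in the fit used above. For CDS footprints 0 became 1 with Denr shRNA1 alone and with scramble alone. Those fits called 817 and 2651 of all 10516 genes, against 1053 in the fit used above. For 5′ UTR footprints 1 became 0 over 5′ UTR RNA, with either Denr shRNA alone and with scramble alone, 3 among genes with coverage, and 0 to 4 without single lysates. Of all 10400 genes 1 was called over 5′ UTR RNA, 32 with Denr shRNA1 alone, 8 with Denr shRNA2 alone and 529 with scramble alone. Without single lysates 109 to 1468 were called, against 706 in the fit used above, and 1198 of the 5175 genes with coverage. For relative 5′ UTR translation 0 became 3 among genes with coverage and 0 to 1 without single lysates. Of the 5175 genes with coverage 939 were called. Without single lysates 9 to 699 of all 10400 genes were, against 112 in the fit used above. The RNA difference of Map2k3 and Map2k6 was -1.05 to -0.77 without single lysates, and that of Map2k4 and Map2k7 was -0.0031 to 0.10. The cause of these shifts was not tested.

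The sign turned in the following values, of which Map2k6 5′ UTR footprints had been called. With Denr shRNA1 alone, Map2k3 was 0.063 in RNA and 0.079 in CDS footprints. With Denr shRNA2 alone, Map2k4 RNA was 0.0080 and Map2k7 was 0.019 in TE, 0.087 in RNA, 0.11 in CDS footprints, 0.14 in 5′ UTR footprints and 0.030 in relative 5′ UTR translation. With scramble alone, Map2k7 was 0.0066 in RNA and 0.010 in relative 5′ UTR translation, Map2k6 CDS footprints 0.017 and Map2k1 5′ UTR footprints -0.068. Over 5′ UTR RNA, Map2k6 5′ UTR footprints were -0.14. With centring, Map2k5 TE between the controls was -0.0069. Without single lysates, TE ran from -0.060 to 0.020 in Map2k2 and -0.042 to 0.053 in Map2k3, RNA from -0.10 to 0.049 in Map2k3 and -0.030 to 0.0064 in Map2k4, CDS footprints of Map2k3 from -0.079 to 0.0061, relative 5′ UTR translation of Map2k7 from -0.21 to 0.10, and Map2k5 TE from -0.081 to 0.14 between the Denr shRNAs and -0.046 to 0.081 between the controls.

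Replicate numbers are shared between shRNAs, but same-numbered lysates correlated over 0.1 in 10 of 15 pairs for RNA, 13 for RPF-seq and 10 for TE, and 7, 9 and 9 of 11 lysates correlated best with their own number. Mean correlations were 0.33, 0.18 and 0.23 for the same number and -0.16, -0.090 and -0.11 for different numbers. Values were centred within each shRNA, so the means for different numbers largely follow from those for the same number and add no support. The pairs also share lysates and are not independent. A shared batch is hinted at by the same-numbered pairs, but not every pair passed 0.1 and no source says what a number marks. The block was kept as an alternative. With a replicate block, members called were 1 for TE (Map2k6), 2 for RNA (Map2k5, Map2k6) and 1 for CDS footprints (Map2k1). They were 4 for 5′ UTR footprints and 4 for relative 5′ UTR translation (Map2k2, Map2k3, Map2k5 and Map2k6 in both). Map2k7 turned to 0.029 in relative 5′ UTR translation, and the 5′ UTR difference of Map2k1 and Map2k2 was -0.58 (adjusted exact permutation p = 0.0185). Over all genes the block gave 58 calls for TE (50 without it), 1003 (373) for RNA and 1940 (1053) for CDS footprints. For 5′ UTR footprints it gave 2150 (706) and for relative 5′ UTR translation 1798 (112).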
